A study of Rattus norvegicus with 30 samples.

Results

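In brains of rat pups of the NEC (Non-Epileptic Control) strain, 185 of the 32586 genes in the count table were lower after valproate (VPA) exposure by a rule on medians. The 15 pups of the GAERS strain (Genetic Absence Epilepsy Rats from Strasbourg) were used to describe and test them. GAERS pups had no part in the comparison of medians, but they counted toward the rule's limit on mean level. A gene was a member when its mean over all 30 libraries was at least 4 CPM (a gene's count scaled by the library's total count) and its median in NEC controls was at least about 1.4 times (a log2 difference near 0.5) that in exposed NEC pups. The comparison of medians used only the 15 NEC libraries, so the NEC difference itself is a description. The mean used the GAERS libraries too, so a gene can be a member through a higher level in GAERS. The member with the highest NEC ratio averaged 4.73 CPM in NEC controls and 2.68 CPM in exposed NEC pups. It averaged 5.42 CPM in GAERS controls and 6.67 CPM in exposed GAERS pups. The rule left out 2 further identifiers by name and capped the list at 300, a cap that was not reached. Of 11971 genes at 4 CPM or more, 185 qualified.

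The series holds whole-transcript RNA libraries of brain tissue from pups of these inbred strains, 8 unexposed and 7 exposed in NEC and likewise 8 and 7 in GAERS. The labels give strain and whether a pup was exposed to VPA or not, and no other treatment. They give no age, sex, litter, dose, timing, route or brain region, so a strain or exposure difference cannot be told apart from a litter difference. Libraries held 26963266 to 56568656 counts. GAERS rats develop spontaneous absence seizures with spike-and-wave discharges, and NEC rats are a seizure-free line used as their comparator. Valproate is a broad-acting antiseizure drug that also inhibits histone deacetylases, the enzymes that remove acetyl groups from histones, and exposure to it before birth is a known risk for neurodevelopmental outcomes in people. Histone acetylation generally goes with open chromatin and active transcription, but genes can move in either direction when deacetylases are inhibited.

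The files carry rat Ensembl identifiers, and the sources used here pair none of them with a gene symbol. The tissue label could therefore not be set against marker genes, the roles of the members are not described, and only 4 members are named, by identifier. In bulk tissue, fewer cells of a type and less RNA per cell cannot be told apart.

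The members were mostly of low to moderate abundance. Their mean level ran from 4.08 to 577 CPM with a median of 14.01 CPM, and the middle 50% of them lay between 7.95 and 27.5 CPM. All 185 were detected in every library. Summed, they took 0.571% to 0.878% of counts in NEC controls and 0.373% to 0.588% in exposed NEC pups. In GAERS controls they took 0.970% in GAERS control 1 and 0.581% to 0.687% in the other 7. In exposed GAERS pups they took 0.431% in GAERS VPA 4 and 0.558% to 0.708% in the other 6. Apart from those 2 pups, the exposed and control ranges in GAERS lay over each other.

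The NEC decreases that chose the members were modest. The ratio of medians, control over VPA, had a median of 1.496 and a maximum of 2.16, and 3 members reached 2. Near the limit, the last members had ratios of 1.4104 and 1.4113, with NEC medians of 29.4 against 20.9 CPM and 46.4 against 32.9 CPM. The first genes left outside had ratios of 1.4091 and 1.4089, with NEC medians of 80.01 against 56.8 CPM and 6.55 against 4.65 CPM, so the limit cuts a continuous range. In 25 members all 7 exposed NEC pups lay below all 8 controls, where 1.42% of all 15885 tested genes did so, and 157 members were among the 13.6% of tested genes called lower in NEC. Both counts restate the choice. In most members, then, exposed and control NEC pups still overlapped.

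The question put to the GAERS pups was whether the same genes were lower after VPA in the other strain. They were lower on average, and few passed the test. With edgeR's quasi-likelihood test and Benjamini-Hochberg adjustment over all 15885 tested genes, 16 members (8.65%) were lower in exposed GAERS pups, where 1.94% of all tested genes were called lower. No member was called higher, where 1.88% of all tested genes were, and at an unadjusted p under 0.05 the members counted 51 lower (8.62% of all tested genes) and 0 higher (9.29%). The number called lower was 25 with DESeq2 (2.76% of tested genes), 14 in a fit of the GAERS libraries alone (1.69%), and 103 with 5 surrogate variables in the model (11.9%), and none of these, nor limma-voom, called a member higher. With a fold of at least about 1.4 required as well, 3 members were called lower (0.277% of tested genes). The log2 fold change was below 0 in 162 of 185 members, where 49% of tested genes were below 0. Its median over the members was -0.20, against 0.0026 over all tested genes, and its middle 50% ran from -0.30 to -0.09, against -0.07 to 0.07 in the other genes of 4 CPM or more. Only 3 members fell below -0.5, and 5 lay above 0.5.

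In most members, 2 of the 15 GAERS pups held the ends of the range. GAERS control 1 was the highest of the 15 in 155 of the 185 members, while it was the highest in 18.1% of the other genes of 4 CPM or more. GAERS VPA 4 was the lowest of the 15 in 121 members, while it was the lowest in 13.8% of the other genes. These pups also often held the opposite ends among the other genes, where GAERS control 1 was the lowest of the 15 in 25.6% and GAERS VPA 4 the highest in 20.3%. GAERS VPA 7 came next and was the lowest in 35 members, while it was the lowest in 10.75% of the other genes. No other pup was the highest in more than 7 members or the lowest in more than 8.

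**Figure D1:**
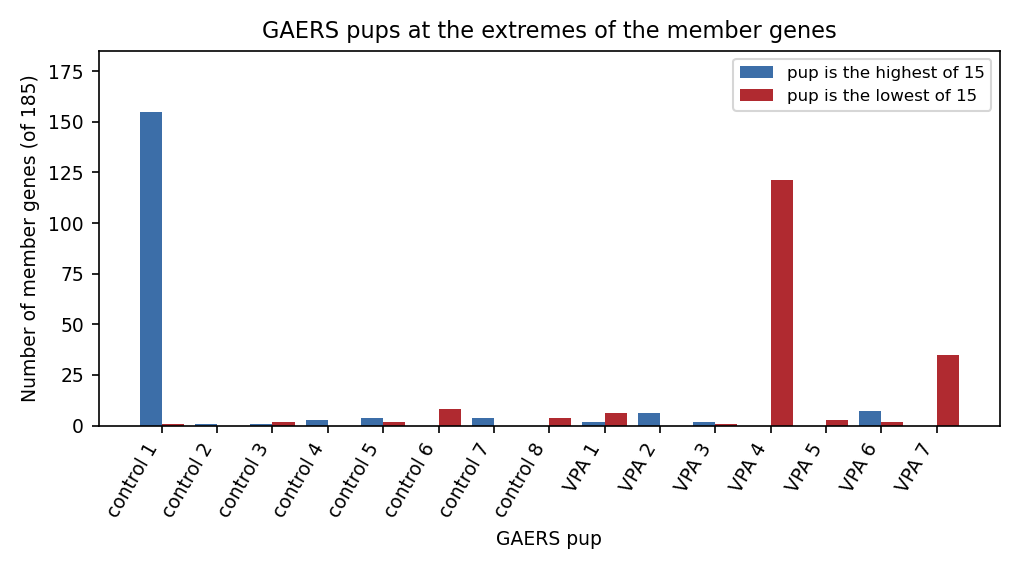
Number of the 185 members (vertical axis) in which each of the 15 GAERS pups (horizontal axis) had the highest CPM (blue bars) or the lowest CPM (red bars). Control 1 is the highest in 155 members and VPA 4 the lowest in 121.

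Both pups were picked on the members' own values, a control at the top and an exposed pup at the bottom. Leaving them out moves the decrease toward 0 by that choice, so the values that follow describe its size and test nothing. Without both pups the median log2 fold change of the members in GAERS shrank from -0.20 to -0.04, 112 of 185 members were below 0 (48.7% of tested genes), and 6 were called lower (1.22% of tested genes). With NEC control 3 and NEC VPA 7 left out as well, which enter only the shared spread, scaling and gene filter, the median was again -0.04. In that fit 13 members were called lower (2.92% of tested genes) and 2 higher (3.05%). Leaving out GAERS control 1 alone gave a median of -0.10, 128 members below 0 (48.2% of tested genes) and 13 called (2.08%). Leaving out GAERS VPA 4 alone gave a median of -0.12, 146 members below 0 (49.6%) and 7 called (0.859%). The number of members called was also 10 without GAERS control 7 (1.35% of tested genes) and 28 without GAERS VPA 2 (2.67%). Each of these counts comes from a fit of the remaining libraries across all genes. GAERS control 1 held 39712534 counts, in a group that ran from 30325916 to 39913978. GAERS VPA 4 held 31385541 counts, in a group that ran from 29799925 to 35793062. GAERS controls thus reached greater depth than exposed GAERS pups, and the part played by depth was not tested. The TMM scaling factors of GAERS control 1 and GAERS VPA 4 were 0.998 and 1.03.

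**Figure D2:**
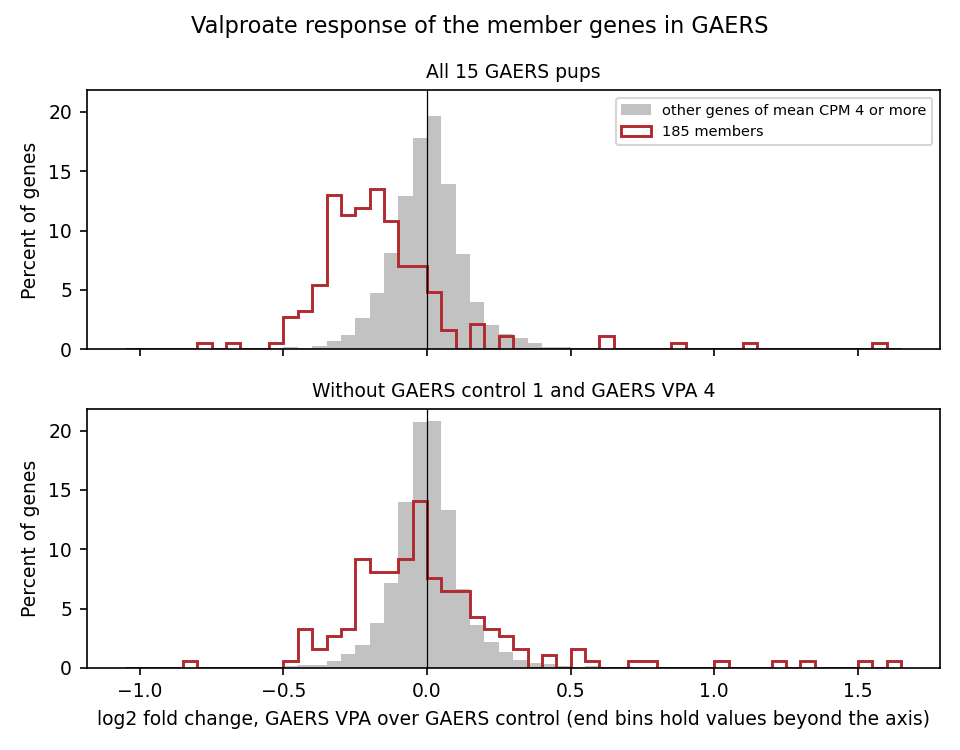
Distribution of the log2 fold change, GAERS VPA over GAERS control (horizontal axis), as percent of genes (vertical axis), for the 185 members (red line) and the other genes of 4 CPM or more (grey). With all 15 pups (upper panel) the members' median is -0.20, and without GAERS control 1 and GAERS VPA 4 (lower panel) it is -0.04, near the other genes.

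The level of the members was also read in single pups. For each pup, log2(CPM + 0.5) of each member was taken relative to that gene's mean over the 30 libraries, and the median over the 185 members was read. GAERS controls averaged 0.14 ± 0.23 (SD, n = 8), with GAERS control 1 at 0.68 and the other 7 at -0.04 to 0.19. Exposed GAERS pups averaged -0.02 ± 0.24 (SD, n = 7), with GAERS VPA 4 at -0.44 and the other 6 at -0.09 to 0.27. The other pups of both groups overlapped, and the highest of the other exposed pups, GAERS VPA 2, lay above the 7 other controls. The difference between the GAERS groups was -0.16 with all pups and -0.02 without both, against a pooled SD of 0.23 between pups.

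In NEC, which chose the genes, controls averaged 0.21 ± 0.16 (SD, n = 8) and exposed pups -0.33 ± 0.21 (SD, n = 7). The ranges still overlapped there, since NEC control 2 lay at -0.09 and NEC VPA 6 at -0.04. NEC VPA 7 was the lowest of all 30 pups at -0.65. The other genes of 4 CPM or more stayed near 0 in all pups, at -0.13 in NEC control 3 and between -0.02 and 0.05 in the GAERS pups.

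**Figure D3:**
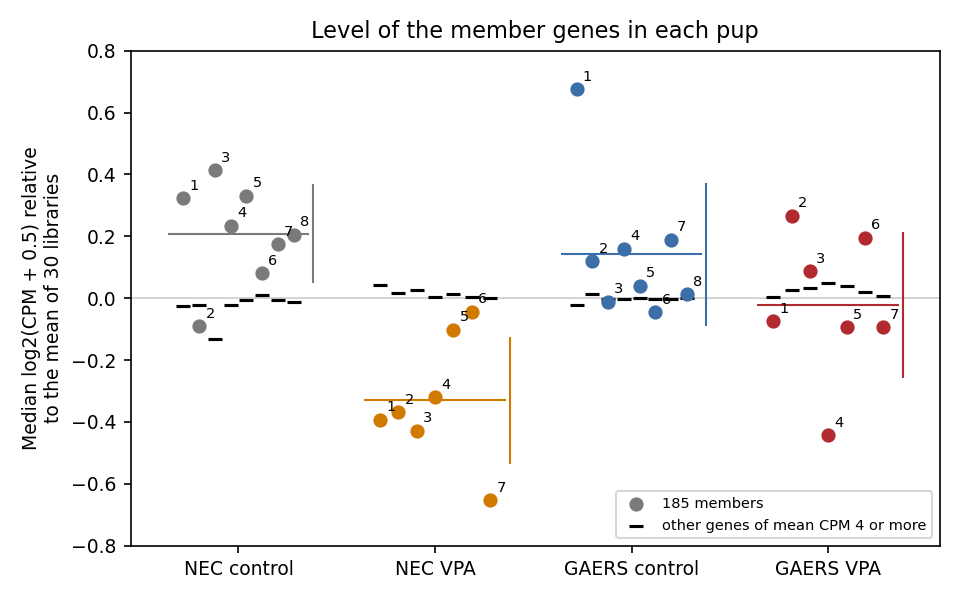
Median log2(CPM + 0.5) of the 185 members relative to the mean of 30 libraries (vertical axis) in each pup, by group (horizontal axis). Points are pups with their replicate number, horizontal lines the group means, vertical lines ± 1 SD, and black dashes the same median over the other genes of 4 CPM or more. GAERS control 1 is the highest of the GAERS pups at 0.68, and GAERS VPA 4 the lowest at -0.44.

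The members varied more between like-treated pups than other genes did, and they varied together. Among the 8 GAERS controls the median SD of log2(CPM + 0.5) was 0.26 over the members and 0.10 over the other genes of 4 CPM or more, and without GAERS control 1 it was 0.14 against 0.08. Among the 7 exposed GAERS pups it was 0.30 against 0.13, and without GAERS VPA 4 it was 0.25 against 0.12. In 179 of 185 members the SD among GAERS controls exceeded the median of the other genes. After each GAERS group was centred on its own mean, a single component held 66.9% of the variance of the members across the 15 pups, against 33.99% for the other genes. Without GAERS control 1 and GAERS VPA 4 it held 40.7% against 25.9%. These are descriptions of pups that share only their group, and the members were not tested for co-variation. A ratio of medians over few pups can favour genes that vary between pups or vary together, so these values may partly follow from the choice. The other genes were also not matched for level. At 4 to 10 CPM lay 72 of the 185 members, against 1706 of the 11786 other genes.

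Pups also fell into 2 sets by 8 genes with a wide gap in level between pups (over 3 in log2(CPM + 0.1)) within every group. In GAERS the first set had 3 control and 4 exposed pups and the second 5 control and 3 exposed pups. GAERS control 1 and GAERS VPA 4 belong to the first set. In that set the median difference of the members, VPA minus control in mean log2(CPM + 0.5), was -0.40, with 178 of 185 below 0. Without GAERS control 1 and GAERS VPA 4 it was -0.11, with 135 below 0. In the second set it was 0.04, with 79 of 185 below 0. The other genes of 4 CPM or more had medians of 0.04 and 0.02 in these sets. In NEC both sets gave a decrease, -0.53 and -0.49, as the choice of members requires of NEC as a whole. Whether the GAERS sets differ was not tested. With the set as a covariate over all libraries, the median log2 fold change of the members in GAERS was -0.22, and 21 were called lower (2% of tested genes), among them all 16 called without it.

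The 16 members called lower in GAERS had a larger median decrease than the other 169. Their log2 fold changes ran from -0.77 to -0.26 with a median of -0.43, which is 1.35-fold lower, and their adjusted p-values by edgeR from 0.00068 to 0.0461. In 13 of the 16, at least 5 of the 7 exposed GAERS pups lay below all 8 controls. That count partly restates the call, which used the same values, and it was not made over all tested genes. In 4 members, all of them among the 16, every exposed GAERS pup lay below every control, a share of 2.16% of the members where 0.359% of tested genes did so, and 0 members had all exposed pups higher than all controls (0.774% of tested genes). Without GAERS control 1 and GAERS VPA 4 all 16 stayed below 0 with a median of -0.35, and 5 remained called. With NEC control 3 and NEC VPA 7 left out too, their median was -0.35 and 11 remained called. The 169 members that were not called had a median of -0.18 with all pups and -0.03 without both, and 96 of the 169 were then below 0. Since the 16 were called with those pups included, this split is a description.

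**Figure D4:**
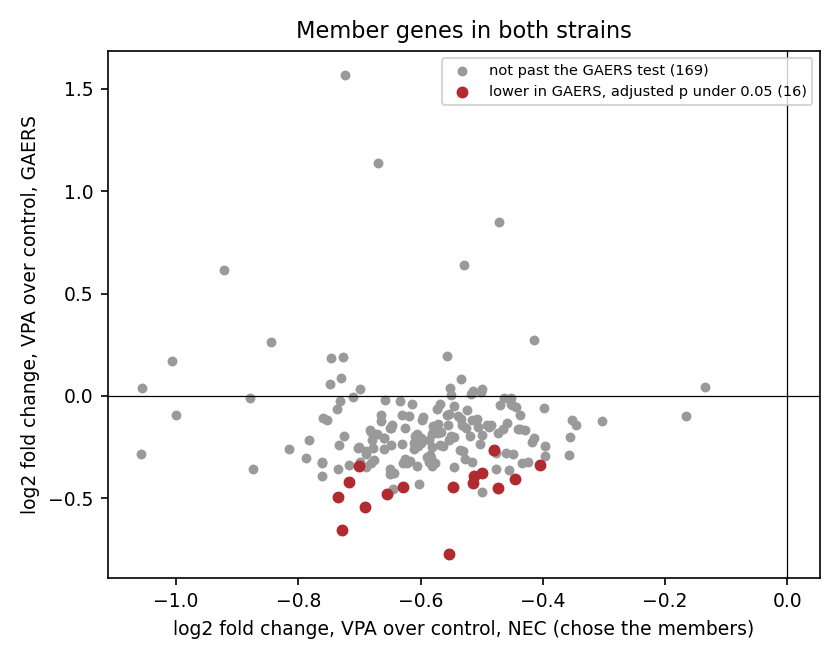
Log2 fold change, VPA over control, of the 185 members in NEC (horizontal axis, the contrast that chose them) and GAERS (vertical axis). Red points are the 16 members called lower in GAERS, grey points the 169 others. Of the 185 points, 162 lie below 0 in GAERS.

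Members with larger NEC ratios were lower in GAERS by slightly more, a description with no test. In the 62 members with ratios of 1.54 to 2.16 the median GAERS log2 fold change was -0.26 and 9 were called lower. In the next 62 it was -0.19 with 2 called, and in the 61 with the smallest ratios -0.16 with 5 called. Among the other genes of 4 CPM or more 2.15% were called lower, so the middle group, at 3.23%, lay near that share. Without GAERS control 1 and GAERS VPA 4 the medians were -0.06, -0.04 and -0.04. By abundance, the members called lower were 6 of 72 at 4 to 10 CPM and 6 of 70 at 10 to 30 CPM. They were 3 of 31 at 30 to 100 CPM and 1 of 12 above 100 CPM, a range with few members. Among other genes in those ranges the share called lower rose with abundance, at 0.528%, 1.56%, 2.22% and 3.92%. The members thus stood less far above other genes of like level at higher abundance.

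The same median rule applied to GAERS picked few members. The GAERS control median was at least 1.4 times (the same limit) the VPA median in 3 members (0.234% of genes of 4 CPM or more), and the VPA median was at least 1.4 times the control median in 7 members (0.518%). By medians, 127 of 185 members were lower in exposed GAERS pups, against 39.9% of genes of 4 CPM or more. The count by medians is smaller than the 162 by fitted means.

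Unexposed GAERS pups held the members at levels between those of the NEC groups. The GAERS control median lay between the NEC VPA and NEC control medians in 146 members, at or above the NEC control median in 36 and at or below the NEC VPA median in 3. The NEC control median was 1.10 times the GAERS control median in the middle member. The exposed groups lay further apart: the GAERS VPA median exceeded the NEC VPA median in 180 members and was 1.28 times as high in the middle member. Both comparisons use NEC libraries that chose the genes. A rule that asks for high NEC control and low NEC VPA medians itself favours both orders, so neither is read as a strain difference. No test was made, and the same holds for any difference in VPA response between the strains.

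Of the members called in GAERS, the one with the largest decrease was ENSRNOG00000013408. In GAERS controls its lowest, median and highest values were 5.19, 10.3 and 11.1 CPM, and in exposed GAERS pups 4.72, 5.403 and 7.88 CPM. The low control was GAERS control 1, here at the bottom of its group while it was at the top for most members. The other 7 controls, at 9.12 to 11.1 CPM, lay above all 7 exposed pups. Means were 9.61 ± 1.91 (SD, n = 8) and 5.73 ± 1.13 CPM (SD, n = 7), a log2 fold change of -0.77 ± 0.14 (SE; 1.71-fold lower, edgeR adjusted p = 0.00219). In NEC its lowest, median and highest values were 5.41, 9.03 and 11.3 CPM in controls and 5.26, 5.84 and 7.33 CPM in exposed pups. Without GAERS control 1 and GAERS VPA 4 its log2 fold change was -0.84 (edgeR adjusted p = 0.000572).

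ENSRNOG00000005286 had the second largest decrease and separated the groups in GAERS. It also separated them in NEC, but those libraries chose the gene, so the NEC separation is a description. In GAERS its lowest, median and highest values were 9.79, 11.2 and 17.5 CPM in controls and 5.45, 8.27 and 9.29 CPM in exposed pups, so that all 7 exposed pups lay below all 8 controls. GAERS control 1 was the highest control and GAERS VPA 4 the lowest exposed pup. The log2 fold change was -0.65 ± 0.13 (SE; 1.57-fold lower, edgeR adjusted p = 0.00416). Without both of those pups it was -0.49 (edgeR adjusted p = 0.0224). In NEC controls the values were 10.6, 13.05 and 16.5 CPM, and in exposed NEC pups 6.56, 7.98 and 9.97 CPM.

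The 2 members with the highest GAERS fold changes were not called, and they differed from pup to pup far more than between groups. ENSRNOG00000008010 ran from 0.0312 CPM, which was 1 count, to 15.1 CPM in GAERS controls, with a median of 7.74 CPM. In exposed GAERS pups it was at 0.0637 CPM in GAERS VPA 4, which was 2 counts, and at 13.2 to 51.8 CPM in the other 6. GAERS controls 5, 7 and 8 held 0.183, 0.292 and 0.0312 CPM, and the other 5 controls 5.86 to 15.1 CPM. Exposed and control GAERS pups overlapped, and the log2 fold change of 1.57 ± 1.0 (SE) did not pass the test (edgeR adjusted p = 0.437). In NEC it ran from 0.195 to 53.3 CPM in controls and from 0.0371 to 21.7 CPM in exposed pups, so its place in the list rests on medians of 6.41 and 3.73 CPM in groups that overlap almost entirely.

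ENSRNOG00000016613 followed the same pups. It was at 1.78, 1.22 and 1.12 CPM in GAERS controls 5, 7 and 8 and at 6.42 to 11.004 CPM in the other 5. In exposed GAERS pups it was at 0.159 CPM in GAERS VPA 4 and at 9.63 to 33.7 CPM in the other 6. Its log2 fold change in GAERS was 1.14 ± 0.71 (SE, edgeR adjusted p = 0.424), although its NEC ratio of 2.08 was the second highest of all members. Both genes were highest in GAERS VPA 6 among the 15 GAERS pups and lowest in NEC VPA 7 among the 15 NEC pups. More widely, the highest pup held at least 10 times the lowest in 2 members among GAERS controls (0.284% of genes of 4 CPM or more) and in 7 members among exposed GAERS pups (0.184%).

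**Figure D5:**
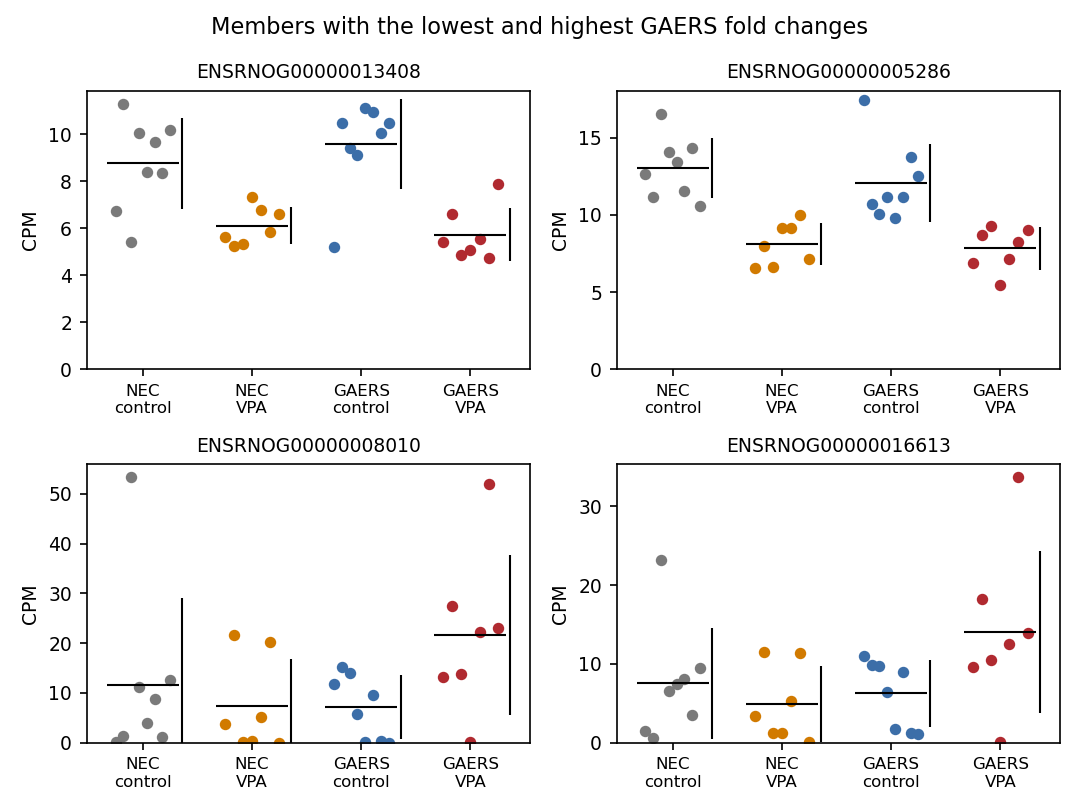
CPM (vertical axes, starting at 0) of the 4 named members in each pup, by group (horizontal axes). Black lines are group means and vertical lines ± 1 SD, drawn no lower than 0. In the upper pair the exposed GAERS pups lie low, with GAERS control 1 low in ENSRNOG00000013408, and in the lower pair pups of every group range from near 0 to above 10 CPM.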

How the data were processed

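The authors deposited raw counts per Ensembl gene for 30 brain libraries, with no normalization. Per the submitters' processing notes, FastQC and STAR 2.5 were used with the rat build Rnor_6.0 (rn6). How reads were counted, with which annotation and whether by strand, is not given in the sources used here. Overlapping, antisense or near-identical genes may therefore share reads. A RefSeq table of 47357 genes (GRCr8) matched 0 identifiers, so 34 gene lists and a sex covariate were not run and no sequence is printed. Groups follow the labels, and replicate numbers follow the order of deposit. Nothing says that pups are from separate litters, and p-values therefore reflect no more than the spread among these libraries.

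The members and lists were chosen with earlier results of these data known. CPM used column totals. Counts were fitted in R 4.3.3 with edgeR 4.0.16: filterByExpr (minimum count 10, total 15), TMM scaling, a robust quasi-likelihood fit of 4 group means on all 30 libraries, and Benjamini-Hochberg adjustment over 15885 genes at a threshold of 0.05. All 185 members passed the filter. Standard errors came from the F statistic. The fit was also run on simulated counts drawn for each gene separately, with no shift shared by genes within a pup. That run therefore does not show how such shared shifts affect the calls. The named members are the 2 lowest by GAERS log2 fold change among those called and the 2 highest, a rule for identifiers with no symbols. Alternatives used DESeq2 1.42.0, limma 3.58.1, sva 3.50.0 and other scalings, filters, covariates, members and libraries. The pup sets (8 genes with a gap over 3 in log2(CPM + 0.1) inside every group) and the joint removal of libraries were added after the data were seen.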

Additional observations from a re-analysis of the deposited data

Results flagged for a closer look

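Among 20 sets of values searched (the members' level per pup and the CPM of the 4 named members, in each group), 4 held a pup far from the others. A nominal rate of 5% would give 1, but that rate was not checked for these values, and the named members were picked by their fold changes. The members' level in GAERS control 1 was 0.68, against -0.04 to 0.19 in the other GAERS controls. ENSRNOG00000013408 was at 5.19 CPM in GAERS control 1, against 9.12 to 11.1 CPM in the other GAERS controls. NEC control 3 held 53.3 CPM of ENSRNOG00000008010, against 0.195 to 12.7 CPM in the other NEC controls. The same pup held 23.2 CPM of ENSRNOG00000016613, against 0.596 to 9.49 CPM in the others. The sets reuse the same pups, and no cause was tested.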

How the results depend on the processing

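The number of members called lower in GAERS was 16 in the main fit (1.94% of tested genes) and 25 with DESeq2 (2.76%). It was 103 with 5 surrogate variables (11.9%) and 3 with a fold of at least about 1.4 added (0.277%). Without GAERS control 1 and GAERS VPA 4 it was 6 (1.22%). It was 10 of the 113 members of at least 10 CPM, or 8.85% against 8.65% of the whole list. Leaving out each library gave from 7 (without GAERS VPA 4, 0.859% of tested genes) to 28 (without GAERS VPA 2, 2.67%). Choosing the members without each NEC library gave 11 to 22, in lists of 118 to 295 genes, or 5.42% to 11.9% of each list. Of the 16, 12 were called in a fit of GAERS pups alone and all 16 with surrogate variables. The number called higher was 0 in 42 of 43 fits and 2 (3.05% of tested genes) without GAERS control 1, GAERS VPA 4, NEC control 3 and NEC VPA 7, a fit with 13 called lower (2.92%). The median log2 fold change was below 0 in all 62 alternatives, from -0.24 to -0.10 when each library was left out and -0.04 without GAERS control 1 and GAERS VPA 4. With surrogate variables ENSRNOG00000008010 turned to -0.16 and ENSRNOG00000016613 to -0.12. The causes were not tested. ENSRNOG00000013408 and ENSRNOG00000005286 stayed called in all 43 fits. A ratio of means kept 123 members, and choosing without NEC VPA 7 kept 112. Sex as a factor was not run, since no identifier could be tied to a symbol. The pup sets as a covariate gave 21 called lower (2% of tested genes). No paired analysis was possible because replicate numbers only follow the order of deposit. With the log2 of each library's total count as a covariate, the median over all members was -0.15. In that fit 12 members were called lower and 146 were below 0. The shares of all tested genes in that fit were not computed, so neither count is read as a result about the members. The part played by depth was not tested, and values of 1 or 2 counts carry large counting error.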
